A study of Mus musculus with 3 samples.

Results

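Promoter fragments of translation factor genes were drawn from a genome-wide set of captured mouse promoters by their names. A viewpoint, the DpnII restriction fragment from which contacts were read, was taken when a part of its name began with Eif or Eef and a digit, or was Etf1, Gspt1 or Abce1. This gave 63 of 7176 viewpoints with a position. Names listed for more than 1 viewpoint were left out. The set held 5 viewpoints of the eIF1 group, 10 of the eIF2 group, 5 of the eIF2 kinases, 13 of eIF3, 13 of eIF4, 5 of eIF5 and eIF6, 9 of elongation, and 3 of termination and recycling. The eIF2 group held eIF2, its exchange factor eIF2B, and Eif2a and Eif2d, which are subunits of neither. The fragment of 62 members contained an annotated transcription start, and the fragment of 11 members also carried the name of another gene, so that their contacts belong to both promoters. Eif2ak4 was captured on 2 fragments whose midpoints lay 0.795 kb apart.

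Contacts were measured by nuclear-titrated Capture-C, in which chromatin is digested with DpnII and ligated inside intact nuclei, and junctions with the targeted fragments are pulled down with oligonucleotides and sequenced. The 3 libraries formed 1 group of ter119+ erythroid cells from mice of an F1 hybrid (C57BL/6-cross-CBA/J). The mice carried no engineered allele in the labels, had been made anaemic with phenylhydrazine in 3 doses given 12 h apart, and were killed on day 5. The spleens, rich in CD71+ ter119+ erythroid cells, had been enriched on magnetic columns with an antibody to ter119, and the age of the mice was not given in the sources used here. No untreated mice and no second cell type were in the series, so no condition could be compared, and nothing said whether the libraries came from separate animals. The spread between libraries may therefore be technical. Contact counts hold no expression, so the cell type could not be checked by transcript markers. The promoters of 9 of 11 erythroid marker genes were among the viewpoints.

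Translation begins when eIF2 brings the initiator tRNA to the small ribosomal subunit with eIF1 and eIF3, while eIF4 proteins bind the mRNA cap and unwind the leader. eIF5 and eIF5B complete subunit joining, the eEF1 and eEF2 proteins drive elongation, and Etf1 and Gspt1 release the chain before Abce1 splits the ribosome. Erythroid cells devote most of their translation to globin, and the haem-regulated kinase Eif2ak1 slows initiation when haem is short. A promoter in a 3C experiment contacts nearby DNA most often, and contact frequency falls with distance, so a distal contact is read against the level its distance gives.

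The viewpoints of the members held from 115 events, for Etf1, to 137000 events, for Eif1ax, where an event is a unique ligation junction between a viewpoint and another fragment of the same chromosome. The median was 7594 events, beside 6482 over all viewpoints. Over all viewpoints, libraries a, b and c totalled 18230099, 34428035 and 34233560 events. Viewpoints with at least 1000 events were tested, which were 61 of the 63 members and 6718 of all 7176. Eif3l, an eIF3 subunit, had 957 events, and Etf1 had 33, 39 and 43 in libraries a, b and c, so neither was tested. Between libraries b and c the chi-square per viewpoint was 0.715 to 0.933 over the ranges of distance, within sampling noise, while for library b against a it was 1.86 to 7.67. In the 5 kb windows of members the chi-square per window was 1.07 for b against c and 1.06 for a against either, so single windows did not set b and c apart as a pair. Each share with an SD, a measure over such ranges, is a mean of library a and of the mean of b and c, with n = 2. Ratios of windows carry no SD, and their events are given by library. Eif1ax and Eif2s3x on chromosome X and Eef1a1 on chromosome 9 lay in stretches captured more deeply than the rest.

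Printed first are the 150 bases before the annotated start of the members whose contacts are described in most detail. These are Eef2k, among the highest in local contacts, Eif3e, among the lowest, and Eif2ak1, with the most called windows. Coordinates are mm9 (NCBIM37), sequences read along the strand of the gene, and capitals mark every match on either strand to the GC box GGGCGG, the CCAAT box CCAAT, the GATA word AGATAA or a CTCF word, which is CCA, AG and GGC in this order with a pair of free bases on either side of the AG. A GC box and a CCAAT box can overlap, since both can hold the same CC.
Eef2k, chr7:127986195-127986344, plus strand: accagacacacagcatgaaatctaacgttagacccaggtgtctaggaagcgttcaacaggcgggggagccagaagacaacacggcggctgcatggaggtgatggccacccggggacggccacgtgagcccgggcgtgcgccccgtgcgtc
Eif2ak1, chr5:144578507-144578656, plus strand: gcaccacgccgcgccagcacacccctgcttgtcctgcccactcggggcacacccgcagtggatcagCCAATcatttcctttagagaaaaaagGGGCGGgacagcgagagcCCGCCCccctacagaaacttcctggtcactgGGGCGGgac
Eif3e, chr15:43114283-43114432, minus strand: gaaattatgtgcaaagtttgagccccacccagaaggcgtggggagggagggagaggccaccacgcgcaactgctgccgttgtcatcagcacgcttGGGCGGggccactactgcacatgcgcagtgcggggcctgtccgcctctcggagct
The Eef2k window held none of the 4 words, Eif3e held 1 GC box, and Eif2ak1 held 3 GC boxes and 1 CCAAT box. Over the 62 members with such a window, 40 held a GC box (64.5%, beside 55.5% of 6347 viewpoints) and 16 held a CCAAT box (25.8%, beside 31.7%). The GATA word was in 0 of the 62, which allows no statement about the factor, and in 2.69% of all windows. The CTCF word was in 1 member (1.61%, beside 2.22%). These are counts of letters in a short window and not of bound sites.

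A distal fragment from inside a called region is shown next for each of 4 members. Each sequence is 300 bases at an exon-free end of the DpnII fragment with the most events, among those with such an end, inside a called region. Capitals mark the same words and the GATC that opens the fragment, and all read along the plus strand.
Eef2k contact, chr7:128059944-128060243, between protein-coding genes, at the end of a fragment that also holds the Polr3e start: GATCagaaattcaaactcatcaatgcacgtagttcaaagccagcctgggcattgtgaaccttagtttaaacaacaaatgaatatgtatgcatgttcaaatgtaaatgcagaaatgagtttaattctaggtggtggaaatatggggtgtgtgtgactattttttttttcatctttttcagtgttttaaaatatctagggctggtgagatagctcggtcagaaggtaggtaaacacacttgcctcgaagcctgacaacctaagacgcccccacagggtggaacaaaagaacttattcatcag
Eif2ak1 contact, chr5:144325865-144326164, between protein-coding genes: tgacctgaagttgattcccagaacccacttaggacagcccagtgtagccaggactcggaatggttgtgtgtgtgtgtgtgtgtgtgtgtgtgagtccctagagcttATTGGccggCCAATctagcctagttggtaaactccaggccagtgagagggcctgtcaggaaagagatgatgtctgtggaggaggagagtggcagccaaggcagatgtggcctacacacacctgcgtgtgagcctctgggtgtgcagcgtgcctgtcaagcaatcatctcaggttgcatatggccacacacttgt
Eef1b2_Ndufs1 contact, chr1:63160067-63160366, intron of Ino80d: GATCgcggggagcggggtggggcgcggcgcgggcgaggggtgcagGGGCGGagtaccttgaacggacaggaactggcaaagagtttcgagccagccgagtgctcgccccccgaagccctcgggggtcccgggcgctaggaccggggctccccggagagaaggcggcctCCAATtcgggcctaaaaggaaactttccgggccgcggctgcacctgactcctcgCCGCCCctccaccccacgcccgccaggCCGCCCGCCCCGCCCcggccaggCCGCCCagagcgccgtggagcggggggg
Eif3g contact, chr9:20941780-20942079, between protein-coding genes: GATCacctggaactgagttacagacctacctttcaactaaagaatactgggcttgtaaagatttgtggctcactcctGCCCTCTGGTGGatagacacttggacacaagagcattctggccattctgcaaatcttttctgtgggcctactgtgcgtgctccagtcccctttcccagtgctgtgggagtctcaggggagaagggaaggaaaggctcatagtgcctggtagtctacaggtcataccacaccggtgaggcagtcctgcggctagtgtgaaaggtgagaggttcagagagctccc
The fragment contacted by Eef2k gave 4, 10 and 4 events in libraries a, b and c, the most of 48 fragments around it. Its region held 180 events. The Eif2ak1 stretch lay in a fragment with 12 of the 121 events of its region and held 2 CCAAT words. The Eef1b2 stretch lay in a fragment that also holds the Ino80d start, with 22 of 424 events (1, 13 and 8 in libraries a, b and c). This stretch held 6 GC boxes. The Eif3g stretch, with 16 of 151 events, held the only CTCF word among the 4 stretches. Each fragment held a small part of its region's events, and those of Eef2k and Eif2ak1 were the longest of their windows. Counts were not adjusted for fragment length, so these fragments do not mark a point of contact. Over the 33 called windows of members described below, 16 held the CTCF word (48.5%, beside 35.0% of the 24038 windows of members that were tested) and 22 held the GC box (66.7%, beside 45.8%). GATA words were in 87.9% of called and 92.5% of all these windows. Called windows of other viewpoints were not searched for the words, so these shares do not show a trait of members. A called window of Eif2ak1 lies in unsequenced bases and could hold no word, and adjacent windows of the same region were counted separately.

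Translation factor promoters kept about as much of their contact close by as other captured promoters. The local share, the percentage of a viewpoint's cis events that fell 2.5 to 100 kb away, had a median of 22.4% over the 61 tested members and 21.9% over all 6718 viewpoints. By library the medians of members were 24.4%, 21.3% and 21.0%, and those of all viewpoints 24.3%, 21.2% and 21.4%. Of the members, 32 lay above the median of all viewpoints, 13 above the upper quartile and 10 below the lower quartile. Library a, with the fewest events, gave the highest share for 55 of the 61 members. The medians of other translation and housekeeping groups lay nearby, at 21.4% for cytoplasmic ribosomal proteins, 21.8% for the proteasome and 22.5% for aminoacyl-tRNA synthetases.

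The tested shares ran from 12.1% to 38.0%, and the quartiles of the members were 19.3% and 25.8%. The libraries of some members lay further apart than these quartiles, as for Eif4g1 at 36.0%, 27.8% and 31.2%, so the ends of the order are clearer than its middle. Exact binomial 95% intervals, which cover counting error only, were at most 5.64 percentage points wide. Shares were lower for viewpoints with more events, with a Spearman coefficient across viewpoints of -0.44 over the 61 members and -0.39 over all 6718. The number of other viewpoints within 1 Mb gave 0.25 over members and 0.40 over all. Viewpoints share libraries and are not independent replicates, so these are descriptions, and the part of depth in the order of the members was not tested.

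**Figure D1:**
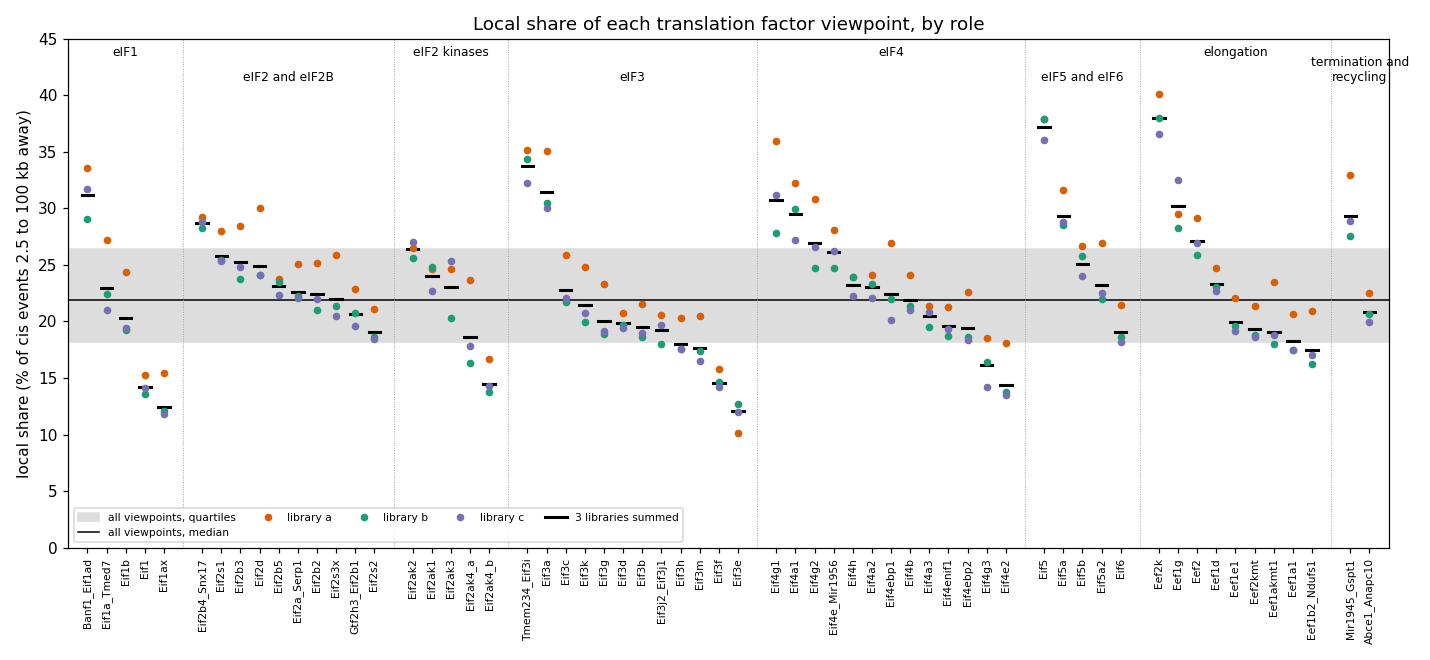
Local share, the percentage of cis events 2.5 to 100 kb from the viewpoint, for each tested translation factor viewpoint, grouped by role, with coloured points for libraries a, b and c, a black bar for their sum, and a line and grey band for the median and quartiles of all 6718 viewpoints. Eef2k and Eif5 stand above the upper quartile in every library, and Eif3e, Eif1ax and Eif1 lie below the lower quartile in every library.

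Among the 5 viewpoints of the eIF1 group, whose proteins scan for the start codon, the median share was 20.3%. Eif1ax, the X-linked gene of eIF1A, gave 15.5%, 12.0% and 11.8% in libraries a, b and c (13.7% ± 2.5, SD, n = 2, interval of the sum 12.3% to 12.6%). Eif1 gave 15.3%, 13.6% and 14.1% (14.6% ± 1.01, SD, n = 2, interval 13.5% to 14.9%). Both lay below the lower quartile of all viewpoints, 18.2%, in each library. The highest of the group was the fragment shared by Banf1 and Eif1ad, at 33.6%, 29.0% and 31.7%. Eif1ad is a relative of eIF1A and Banf1 binds DNA in the nucleus.

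The 10 viewpoints of the eIF2 group, in which eIF2 carries the initiator tRNA and eIF2B recharges it with GTP, had a median of 22.9%. The lowest was Eif2s2, the beta subunit, at 21.1%, 18.7% and 18.4%. The highest in the sum was the fragment of Eif2b4, a regulatory subunit of eIF2B, with Snx17, at 29.3%, 28.3% and 28.8%, below Eif2d in library a.

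The 5 viewpoints of the eIF2 kinases had a median of 23.1%. Eif2ak1, the haem sensor of erythroid cells, gave 24.7%, 24.8% and 22.7% in libraries a, b and c (24.2% ± 0.66, SD, n = 2). Eif2ak2, which responds to double-stranded RNA, gave 26.5%, 25.7% and 27.1%, the highest of the kinases. Eif2ak3, the kinase of endoplasmic reticulum stress, gave 24.7%, 20.3% and 25.4%. Its libraries overlapped with those of Eif2ak1, so the order of these neighbours does not hold beyond their spread. The fragments of Eif2ak4, which senses uncharged tRNA, gave 23.7%, 16.3% and 17.8% for the first and 16.7%, 13.8% and 14.3% for the second. Both fragments of Eif2ak4 lay below the other kinases in each library, and the second, with 19625 events against 2439, lay below the first in every library.

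The eIF3 subunits, the scaffold of the initiation complex, had a low median of 19.7% over 12 tested members and also a wide range. Eif3e was the lowest of all members in the sum, at 10.1%, 12.7% and 12.0% in libraries a, b and c (11.2% ± 1.56, SD, n = 2, interval 11.2% to 13.1%). Eif1ax lay below it in libraries b and c and their intervals overlapped, so these neighbours at the bottom of the order do not differ beyond their spread. The fragment of Eif3i with Tmem234 was the highest of eIF3, at 35.2%, 34.4% and 32.2% (34.2% ± 1.33, SD, n = 2, interval 32.1% to 35.5%). These ends of the group were far apart in every library.

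The 13 eIF4 viewpoints, grouped by name and including genes of cap binding and unwinding, had a median of 22.5%. Eif4e, the cap-binding protein itself, gave 28.1%, 24.8% and 26.2% (26.8% ± 1.85, SD, n = 2). Its relative Eif4e2 was the lowest of the group at 18.1%, 13.8% and 13.5%. The scaffold Eif4g1 was the highest in the sum at 36.0%, 27.8% and 31.2%, although the helicase gene Eif4a1, at 32.3%, 30.0% and 27.3%, lay above it in library b and overlapped with it. In each library Eif4e2 lay below and Eif4g1 above Eif4e.

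Of the 5 eIF5 and eIF6 viewpoints, with a median of 25.1%, Eif5, which triggers GTP hydrolysis on eIF2, reached 37.9%, 37.9% and 36.1% (37.4% ± 0.66, SD, n = 2, interval 36.0% to 38.4%). Eif5a, the hypusine-bearing factor that eases difficult peptide bonds, gave 31.6%, 28.5% and 28.8%. Eif6, which keeps free ribosomal subunits apart, was the lowest at 21.5%, 18.6% and 18.2%. The order of Eif5, Eif5a and Eif6 was the same in each library.

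Elongation viewpoints had a median of 20.0% over 9 members. Eef2k, the kinase that inhibits eEF2, was the highest of all members at 40.2%, 38.0% and 36.6% (38.7% ± 2.02, SD, n = 2, interval 36.7% to 39.4%). Eef2k lay above Eif5 in each library, by little in library b, and their intervals overlapped. The order of these neighbours at the top is therefore not settled. Eef2, the translocase, gave 29.2%, 25.9% and 27.0%. Eef1a1, which delivers aminoacyl-tRNA, gave 20.7%, 17.5% and 17.5%. The lowest was the fragment of the exchange factor Eef1b2 with the respiratory-chain gene Ndufs1, at 20.9%, 16.3% and 17.0%, which overlapped with Eef1a1. Of the release and recycling genes, the fragment of Gspt1 with Mir1945 gave 32.9%, 27.6% and 28.9%, and that of Abce1 with the cell-cycle gene Anapc10 gave 22.5%, 20.7% and 19.9%. Etf1, with 115 events, gave 27.8% in the sum with an interval of 19.9% to 37.0%, which spans the median of all viewpoints.

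Over the whole range of distance the members followed the set of captured promoters. The median share within 2.5 kb was 1.35% for members and 1.39% for all viewpoints. From 10 to 100 kb it was 15.9% for both, and from 100 kb to 1 Mb it was 19.4% and 19.6%. Beyond 10 Mb it was 32.4% for members and 34.1% for all. The decay slope, the change in log10 events per fragment for each unit of log10 distance from 10 kb to 1 Mb, was -0.91 for members and -0.90 for all viewpoints. Library a gave a slope of -0.95 for members, and libraries b and c gave -0.91 and -0.90.

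Members contacted both sides of their promoter to a similar extent in most cases. The median percentage of events upstream of the start was 49.0%, and 28 of the 61 had more upstream than downstream. A viewpoint was called one-sided when at least 66.7% of its events from 2.5 kb to 1 Mb fell on 1 side, which was so for 8 of 61 members (13.1%) beside 11.0% of all viewpoints. Of these 8, 6 leaned downstream and 2 upstream, and 6 passed in each library. Those that leaned downstream include both fragments of Eif2ak4, and Eif4enif1, which has few fragments upstream. No such split of all one-sided viewpoints stands beside these counts, so they show no lean particular to members. At a limit of 70% it was 4 members (6.56%, beside 5.98% of all viewpoints). From 10 kb to 1 Mb it was 14 (23.0%, beside 15.4%), and from 2.5 to 100 kb it was 7 (11.5%, beside 5.70%).

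Eef2k was the most one-sided member with fragments to both sides in similar number, at 78.5%, 74.8% and 78.1% of events at higher coordinates in libraries a, b and c. It had 2125 listed fragments below and 2132 above. Its gene runs 64.4 kb to that side. From 2.5 to 100 kb, Eef2k reached 2.31 times the events expected on the side of the gene body (2.24, 2.32 and 2.35 by library) and 0.559 times on the other (0.493, 0.659 and 0.511). The sides did not overlap in any library. Eif4enif1, whose product shuttles eIF4E into the nucleus, had 93.2% of its events at higher coordinates, but only 179 listed fragments lay below it against 2297 above, since it sits near the start of the sequenced part of chromosome 11. Both fragments of Eif2ak4 leaned to the same side, at 71.7% and 69.7%. Eef1e1, a scaffold protein of the synthetase complex, had 71.4% downstream, and the eIF3 subunit Eif3g had 69.4% upstream.

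Distal contacts above the level set by distance were found at 15 of the 61 tested members (24.6%), near the background of 27.3% of all viewpoints. A window of 5 kb was called when its events exceeded expectation at an adjusted p under 0.05 in the negative binomial test with Benjamini-Hochberg adjustment over all windows, and lay above expectation in each library. Members had 33 called windows of 24038 (0.137%), beside 0.151% of all windows, and adjacent windows joined into 26 regions. The share of viewpoints with a call was 31 of 84 for ribosomal proteins, 12 of 45 for the proteasome, 5 of 20 for aminoacyl-tRNA synthetases and 7 of 24 for other translation genes. By role, calls were made at 0 of 5 members of eIF1, 1 of 10 of the eIF2 group (Eif2d), 1 of 5 kinases, 3 of 12 of eIF3, 4 of 13 of eIF4, 1 of 5 of eIF5 and eIF6, 4 of 9 of elongation and 1 of 2 of termination and recycling. Of the windows, 19 lay within 100 kb, 18 upstream and 15 downstream. A protein-coding gene overlapped 23 of them (69.7%), beside 75.3% of the 4002 called windows of all viewpoints and 56.9% of the members' tested windows. A protein-coding start lay in 8 (24.2%, beside 34.0% and 14.0%) and another viewpoint in 2 (6.06%, beside 17.6% and 2.52%). With the expected count set per side 12 of the 33 windows kept their call, and 11 of the 31 that could be tested were lost without chromosome X and the deep stretch of chromosome 9. How many called windows of all viewpoints were kept was not counted. The calls depended on how far the spread was trimmed: 1 window of members was called with no window left out of the dispersion, and 68 with the highest 1% left out.

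**Figure D2:**
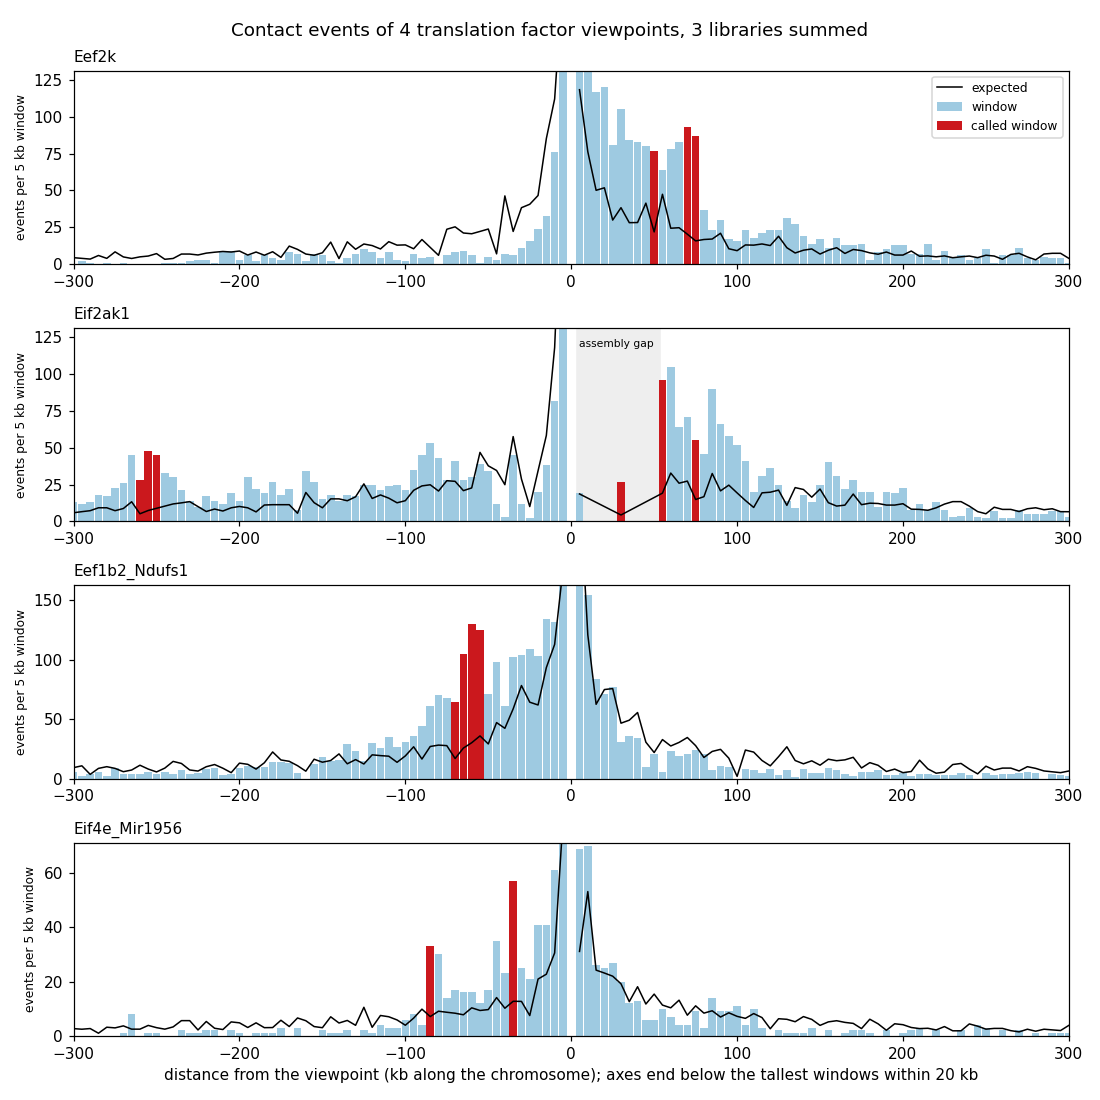
Events per window of 5 kb, summed over the 3 libraries (bars), and the expected count (black line) within 300 kb of the Eef2k, Eif2ak1, Eef1b2_Ndufs1 and Eif4e_Mir1956 viewpoints, against distance along the chromosome in kb, with called windows in red and the assembly gap beside Eif2ak1 in grey. Axes end below the tallest windows within 20 kb of the viewpoint. The called windows of Eef2k lie on the higher side, those of Eef1b2 and Eif4e on the lower side, and those of Eif2ak1 on both.

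The farther called region of Eef2k held the start of the neighbouring gene Polr3e, a subunit of RNA polymerase III. The region, chr7:128053583-128063813, lay 67.5 to 77.5 kb downstream of the Eef2k viewpoint, past the end of the Eef2k gene, and gave 49, 71 and 60 events in libraries a, b and c. Expectation was 36.1 in the sum, a ratio of 4.98, and the lowest adjusted p of its windows was 0.000143 by the negative binomial test with Benjamini-Hochberg adjustment. The libraries lay at 4.87, 5.56 and 4.51 times expectation. A window inside the Eef2k gene, 47.5 to 52.5 kb downstream, gave 26, 23 and 28 events against 21.9 (ratio 3.52, adjusted p = 0.0399 in the same negative binomial test). The Polr3e windows were called without each library in turn, while the inner window was lost without library a or without library c. With the expected count set separately for each side, none of the 3 windows was called. Events were high along this whole side. The 5 kb windows centred 30 to 75 kb away held 64 to 105 events each, and the window at 80 kb held 37. The events therefore do not single out the Polr3e start within that stretch.

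Eif2ak1 had the most called windows of any member, 6 in 4 regions. The upstream region, chr5:144316481-144331358, overlapped 2810453I06Rik, a gene known by its clone name, 247.5 to 262.5 kb away. It gave 35, 46 and 40 events against 21.5 (ratio 5.63). Its lowest adjusted p was 0.00314 by the negative binomial test with Benjamini-Hochberg adjustment. The libraries lay at 6.43, 5.53 and 5.20 times expectation. Its middle window was called without each library in turn, while the outer windows were not. With the expected count set per side, the middle window kept its call and the outer windows lost theirs. The middle window was the one window of all members still called with no window left out of the dispersion, with adjusted p = 0.0238, negative binomial test.

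On the downstream side of Eif2ak1 the build has a gap of 50000 unsequenced bases, chr5:144582441-144632440, inside the gene from 3.68 to 53.7 kb away. The window 52.5 to 57.5 kb downstream, just past the gap, gave 24, 37 and 35 events against 19.2 (ratio 5.00, adjusted p = 0.000322 in the negative binomial test). The window 72.5 to 77.5 kb downstream, at the start of Ankrd61, gave 13, 21 and 21 against 14.9 (ratio 3.70, adjusted p = 0.0435, negative binomial test with Benjamini-Hochberg adjustment). It was lost without any 1 of the libraries and without the deeply captured stretches. The window placed at 27.5 to 32.5 kb was a single listed fragment that spans the gap, with 12, 9 and 6 events, and was lost without library a. Distance, and with it expectation, depends in all 3 windows on the length the build gives to the gap, so these downstream contacts cannot be told apart from a shorter true distance. The upstream region has no such gap between it and the viewpoint.

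The called region of Eef1b2_Ndufs1 held the start of Ino80d, a subunit of the INO80 chromatin remodeller. The region, chr1:63151193-63170946, held 4 windows 52.5 to 72.5 kb upstream of Eef1b2 and gave 95, 160 and 169 events against 109 (ratio 3.90, with 3.73, 3.85 and 4.05 in libraries a, b and c). The lowest adjusted p was 0.00235 in the negative binomial test. Of these, 2 windows were called without each library in turn. With the expected count set separately for each side, none of the 4 was called, with adjusted p from 0.0549 to 0.338 in the negative binomial test with Benjamini-Hochberg adjustment. From 2.5 to 100 kb the lower side held 1.85 times the expected events and the higher side 0.936 times. The Ino80d start lay in the windows centred 60 and 65 kb away (ratios 4.31 and 4.09). The windows at 55 and 70 kb, without it, had ratios of 3.48 and 3.78. The events therefore do not single out that start within the region. Eef1a1 had windows 717.5 to 722.5 and 727.5 to 732.5 kb downstream, of which the nearer overlapped Gclc, the rate-limiting enzyme of glutathione synthesis. They gave 4, 13 and 11 events (ratio 7.34) and 10, 24 and 21 events (ratio 6.18). Both lay above expectation in each library, and both were lost without library b, without library c and with the expected count set per side. Eef1e1 contacted Snrnp48, a component of the minor spliceosome, 447.5 to 452.5 kb downstream with 3, 10 and 11 events (ratio 6.68), lost in the same way.

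Among eIF4 members, Eif4e had 3 upstream regions. The nearest, 32.5 to 37.5 kb away, overlapped no protein-coding gene but lay within 5 kb of the captured promoter of Metap1. It gave 14, 20 and 23 events against 12.8 (ratio 4.47, adjusted p = 0.010 in the negative binomial test). The next held the start of Adh5, which oxidises formaldehyde adducts, with 11, 14 and 8 events (ratio 4.63). The farthest, 372.5 to 377.5 kb away, rested on 9 events and was lost without any 1 of the libraries. Eif4a2, an RNA helicase, had a window 27.5 to 32.5 kb downstream with 11, 31 and 26 events against 15.3 (ratio 4.46, adjusted p = 0.00332 in the negative binomial test), beyond a window with the start of Rfc4, a clamp-loader subunit. Eif4enif1 had a window 447.5 to 452.5 kb downstream that held the start of Morc2a. It gave 8, 23 and 18 events against 6.55 (ratio 7.49, adjusted p = 0.00336, negative binomial test with Benjamini-Hochberg adjustment). With the expected count set per side, the ratio of this Morc2a window was 4.03 and its call was lost. A second Eif4enif1 window, 77.5 to 82.5 kb upstream and near the start of the sequenced chromosome, had 15, 10 and 13 events (ratio 4.12). With the expected count set separately for the few fragments of that side, its ratio was 30.3. Eif4g2, a cap-independent relative of Eif4g1, had 1 window 37.5 to 42.5 kb upstream with 12, 13 and 14 events (ratio 3.87). Of these, the Eif4e window nearest the promoter, the farther Eif4a2 window and the Morc2a window were called without each library in turn, and all other windows of eIF4 members were lost without at least 1 library. Of the 3, the farther Eif4a2 window kept its call with the expected count set per side.

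Eif3g contacted a region overlapping Cdc37, the kinase co-chaperone of Hsp90, 237.5 to 247.5 kb upstream. It gave 36, 56 and 59 events against 31.0 (ratio 4.87, with 4.58, 4.90 and 5.06 by library). No protein-coding start lay in it, and the captured promoters of Tyk2 and Cdc37 lay within 5 kb on either side. The region, chr9:20939624-20950367, includes the fragment with the CTCF word printed above. Its lowest adjusted p was 0.0148 by the negative binomial test with Benjamini-Hochberg adjustment. Both of its windows lost their call without library c and with the expected count set per side. Eif3e, among the lowest in local share, had a window within its own gene, 7.5 to 12.5 kb away, with 4, 30 and 18 events (ratio 3.63). Its other window, 192.5 to 197.5 kb upstream at Ttc35, had 1, 7 and 8 events (ratio 7.09). Library a gave few events at both, and the second was lost without library b or without library c. The first was lost without library b, with the expected count set per side and without the deeply captured stretches. The shared fragment of Eif3j2 and Eif3j1 had regions 527.5 to 532.5 kb upstream at Mfap1a, a splicing factor gene, with 8, 7 and 10 events (ratio 6.16), and 347.5 to 352.5 kb downstream with 8, 8 and 18 (ratio 6.45). The upstream window was lost without any 1 of the libraries and without the deeply captured stretches, and the downstream one without library c.

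Outside these groups, Eif2d, which can load initiator tRNA without eIF2, had a window 32.5 to 37.5 kb upstream with 28, 56 and 52 events against 37.1 (ratio 3.66), lost without library a, with the expected count set per side and without the deeply captured stretches. Abce1_Anapc10 contacted Otud4, a deubiquitinase gene, 67.5 to 72.5 kb downstream with 12, 6 and 9 events (ratio 4.48), lost without library a, without library c and under the same pair of settings. The Eif5b window 572.5 to 577.5 kb upstream had the highest ratio, 14.5, but held 7 events and was lost without any 1 of the libraries. No window of the eIF1 group was called. The highest there with at least 5 expected events was that of Eif1b at the start of Wdr48, with 29 events against 6.07 (adjusted p = 0.146 in the negative binomial test). Eif2s3x, the X-linked gamma subunit of eIF2, had 47 events against 9.30 about 640 kb away (adjusted p = 0.0976, negative binomial test with Benjamini-Hochberg adjustment). Despite its high local share Eif5 had no call, and its highest window gave 22 events against 5.10 (adjusted p = 0.257 in the same negative binomial test).

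**Figure D3:**
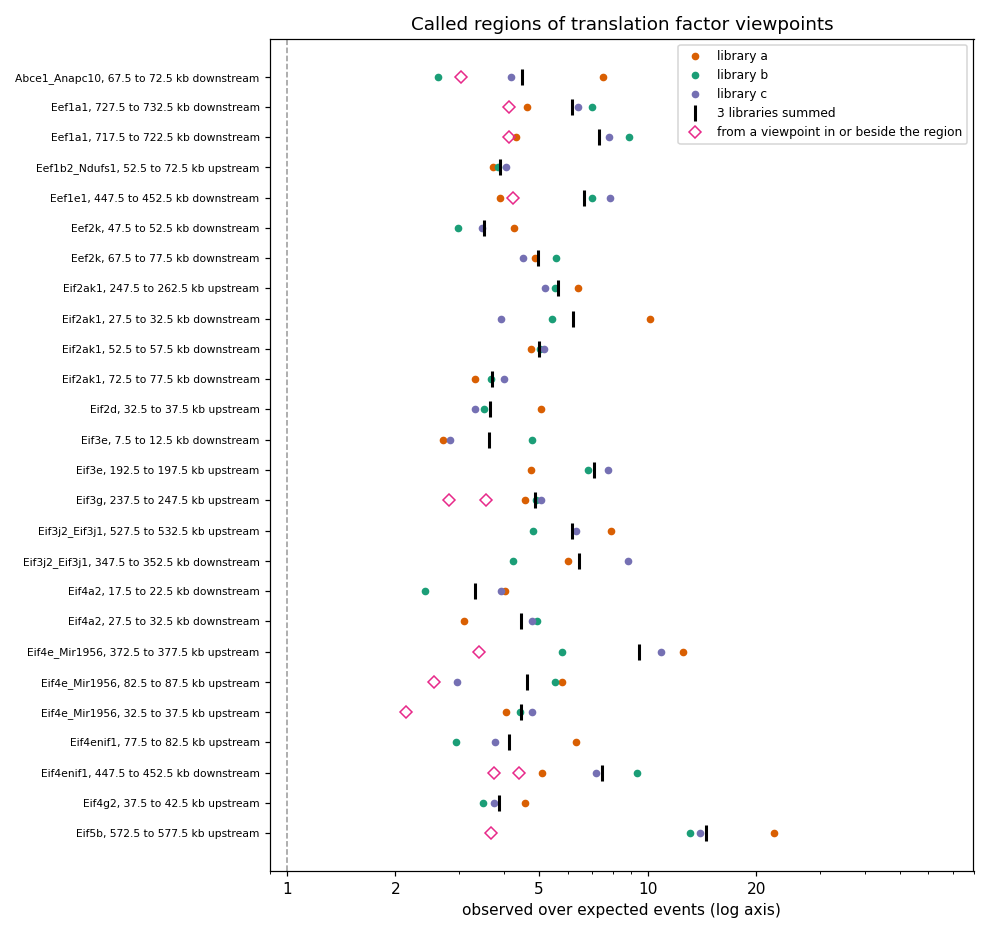
Events over expectation, on a log axis, for each of the 26 called regions of translation factor viewpoints, with coloured points for libraries a, b and c, a black mark for their sum, and a diamond for the ratio read in the other direction from a viewpoint in or beside the region. The sums run from 3.33 for the Eif4a2 region at Rfc4 to 14.5 for Eif5b, and every tested diamond lies above 1.

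Some called regions held or adjoined another captured promoter, from which events around the member could be read. Another viewpoint lay inside 2 of the called windows, those with Rfc4 and Adh5, and the others lay beside their regions. From beside a region, the reading covers the neighbourhood and not the called window itself. The viewpoints were picked because a window of the member had been called, so a ratio above 1 is no separate support. Of 13 such viewpoints within 5 kb of a region, 11 were tested, and the ratio around the member was above 1 in the sum for 11 and in each library for 10, between 2.13 and 4.41. The exception was Snrnp48, with 0 events in library a. Captured promoters lay above expectation beside each other in general: summed over all neighbours, 85.1% of viewpoints with at least 20 expected events had a ratio above 1, and 68.0% in each library. Both directions came from the same libraries, so they are not independent replicates. From Gclc there were 12, 26 and 34 events around Eef1a1 against 17.4 expected (4.14). From Cdc37 there were 11, 12 and 13 around Eif3g against 10.1 (3.56), and from Tyk2 there were 14, 32 and 27 against 25.95 (2.81). From Otud4 there were 15, 31 and 28 around Abce1 against 24.4 (3.04). Morc2a gave 1, 5 and 10 around Eif4enif1 against 3.63 (4.41), in which library a held 1 event. Tug1, within 5 kb of the same region, gave 2, 3 and 5 against 2.67 (3.75). From Adh5 there were 26, 55 and 52 around Eif4e against 51.9 (2.56), and from Metap1 there were 6, 36 and 35 against 36.1 (2.13). The viewpoints Rfc4 and Emc2_Gm10373 had too few events to be tested.

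Members contacted DNA beside other captured promoters more than distance alone gives, as captured promoters did in general. Targeted fragments themselves are masked, so events were read 1 to 2 fragments away from each other viewpoint within 1 Mb. The summed ratio to expectation was 1.54 for members (1.54, 1.58 and 1.51 in libraries a, b and c) and 1.42 for all viewpoints (1.41, 1.43 and 1.43). The member value lay above that of all viewpoints in each library. It was 1.32 for ribosomal proteins, 1.51 for the proteasome, 1.53 for aminoacyl-tRNA synthetases and 1.24 for other translation genes. Of 39 members with at least 20 expected events, 35 had a ratio above 1 (89.7%, beside 85.1% of 4041 viewpoints), and 34 had one in each library (beside 68.0% of those viewpoints). Their median was 1.59, beside 1.40. Eef1e1 was the highest in the sum, at 3.70, 2.71 and 3.31, and Eif4enif1 gave 2.55, 3.16 and 2.96, above Eef1e1 in library b. The expectation of Eif4enif1 is set from its total over both sides, although few fragments lie below it. From 2.5 to 100 kb its higher side held 1.94 times the expected events. Eif5a2, the second gene of eIF5A, gave 2.19, 2.51 and 2.93, all from 4 places. Eif2d was under 1 in each library, at 0.856, 0.791 and 0.847.

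**Figure D4:**
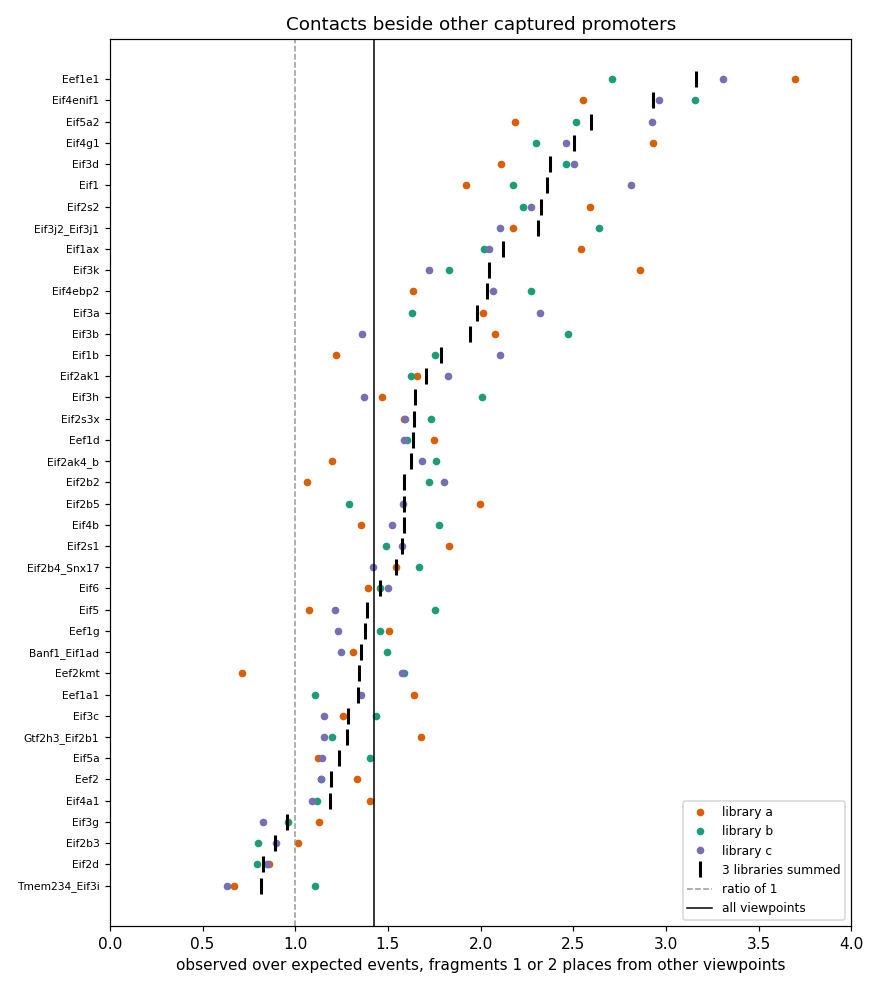
Events over expectation at fragments 1 to 2 places from other captured promoters within 1 Mb, for the 39 members with at least 20 expected events, with coloured points for libraries a, b and c, a black mark for their sum, and lines at 1 and at the value of all viewpoints, 1.42. Most members lie above 1, Eef1e1 is the highest in the sum and Eif2d is below 1 in each library.

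Members lay within 1 Mb of each other in 4 pairs. The fragments of Eif2ak4, 0.795 kb apart, are neighbours on the same gene: from the first there were 23, 23 and 22 events around the second against 35.4 expected (1.92), and from the second 58, 99 and 114 around the first against 333 (0.813, under 1 in each library). Events nearer than 2.5 kb were not counted, so these values describe the near flank of each viewpoint and not contact between the fragments. Eif4g1, the eIF4 scaffold, and Eif2b5, the catalytic subunit of eIF2B, lie 173.6 kb apart. From Eif4g1 there were 6, 19 and 15 events around Eif2b5 against 13.5 expected (2.96), and from Eif2b5 there were 9, 6 and 13 around Eif4g1 against 10.5 (2.66). Both directions were above 1 in each library. Eif5a and the helicase gene Eif4a1 lie 248.7 kb apart. From Eif5a there were 22, 38 and 45 events around Eif4a1 against 40.3 (2.61), and from Eif4a1, with few events in all, there were 3, 0 and 5 against 3.00 (2.66). Eif2s2 and Eif6, 933.7 kb apart, gave 6 events against 4.6 and 5 against 4.49, a difference not detectable at this depth. These values are descriptions and were not called at the level of single windows.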

How the data were processed

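Contacts of captured promoter fragments were measured in 3 libraries of 1 group. The authors trimmed the reads with Trim Galore, aligned them to mm9 with Bowtie, both named in the submitters' processing notes with versions not given in the sources used here, removed PCR duplicates and counted unique ligation events. The deposited signal values are events per 100000 cis events of the viewpoint in that library. The 3 value columns carry no names and were called libraries a, b and c. No other columns of samples were present. Each viewpoint's smallest value above 0 was taken as 1 event, and 100% of values then came out whole at a tolerance of 0.01 events, so tests used counts worked back from the deposited signal, although a signal had been planned for.

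Events 2.5 kb to 1 Mb away were summed in windows of 5 kb. The expected count came from the rate at that distance over all viewpoints, the listed fragments and the viewpoint's total. A one-sided negative binomial test used a dispersion for each of 50 distance bins, with the highest 0.1% of windows left out, and Benjamini-Hochberg adjustment over 2655607 windows. Over ranges of distance the counts of b and c were no further apart than sampling noise gives, so their mean was counted as 1 sample beside library a (n = 2 in the SD of each share). In the members' 5 kb windows b and c were no closer than the other pairs, so window ratios were given without an SD. Intervals are Clopper-Pearson at 95% and cover counting error only.

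Genes named in full were those with called windows, the 3 highest and 3 lowest local shares, the eIF2 kinases, Eef1a1, Eef2, Eif4e, Eif5a, Etf1, Gspt1 and Abce1, the ends of each role group, and the highest window of role groups. The members and lists were chosen with earlier results of these data known. Alternatives covered the dispersion, window size, event minimum, distance range, libraries left out, repeated 30-base words and the deeply captured stretches. Python 3.11.15, numpy 2.4.6, pandas 2.3.3 and scipy 1.17.1 were used, and the test was tried on simulated counts. Annotation was GENCODE for the same build.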

Additional observations from a re-analysis of the deposited data

How the results depend on the processing

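The number of called windows of members was 33 and depended most on the dispersion: 1 with no window left out, 68 with the highest 1% left out and 1344 with Poisson counts. Members with a call were 15, and 1, 29 and 61 under these, beside 7.31%, 46.5% and 99.7% of all viewpoints. With windows of 10 kb there were 17 calls at 13 members (22.2% of all viewpoints), and with single fragments 4 at 4 members (7.86%). With the expected count set per side there were 19 at 9 members (20.5%). Without chromosome X and the deep stretch of chromosome 9 there were 20 at 11 of 58 members, beside 23.1% of 6359 viewpoints. Under a minimum of 5000 events 9 of 42 members had a call, beside 30.0% of 4347 viewpoints. Leaving out 1 library gave 16 to 22 windows at 10 to 14 members, beside 18.95% to 23.7% of all viewpoints, and 9 windows of 6 members were called without each library in turn. In 10 settings with trimmed dispersion, 3 windows kept their call wherever they were tested, those of Eif2ak1 in the middle of its upstream region and just past the gap, and the farther one of Eif4a2. No value of all viewpoints stands beside these counts of kept windows. They do not show whether the calls of members hold more or less often than others. Leaving out fragments with an assembly gap, chosen after seeing the data, gave 32 windows at 15 members, beside 27.3% of all viewpoints. The median local share was 15.9% from 10 to 100 kb (15.9% for all viewpoints), 40.8% from 2.5 kb to 1 Mb (42.3%) and 34.8% of the events within 10 Mb (33.6%). Without 1 library it was 21.2% to 22.8%. The ratio beside other viewpoints was 1.20 at 1 place away, 1.62 at 1 to 5 places, 1.92 with viewpoints weighted equally, 1.67 from 50 kb, 1.52 without the deep stretches, and 1.52 to 1.57 without 1 library. No value of all viewpoints stands beside these ratios, so they do not show whether members stay above all viewpoints. The decay slope was -0.87 with no scaling of viewpoints, and -0.90 to -0.92 without 1 library. One-sided members were 4 at a limit of 70%, 14 from 10 kb to 1 Mb, and 8 to 9 without 1 library. The causes of these shifts were not tested. No paired analysis was possible because there is 1 group. Depth limits the distant windows, where the calls of Eif5b and of the farthest Eif4e window rested on 7 and 9 events.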
